A study of Mus musculus with 8 samples.

Results

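The genes described here are the enzymes that make serine, move its one-carbon units through folate and make proline's precursor: Phgdh, Psat1, Psph, Shmt1, Shmt2, Mthfd1, Mthfd1l, Mthfd2, Aldh1l2 and Aldh18a1. They were chosen by symbol, and all 10 are in the deposited table of 55385 genes. All 10 also passed the filter on low counts, as did 15314 genes in all. The samples were left ventricles of male C57BL6 mice, 4 carrying the Mst1 transgene (Mst1-TG, labelled as experimental dilated cardiomyopathy) and 4 littermate non-transgenic controls (WT), with no other treatment named. The alpha-myosin heavy chain promoter drives the transgene, which restricts it to cardiomyocytes, while the libraries hold RNA of all cells of the ventricle. The design text gives an age of 3 weeks and the extraction protocol 3 months, the growth protocol has both 3 weeks and, for adults, 5.5 months, and the labels do not say whether a library is 1 animal or a pool.

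Serine is made from a glycolytic intermediate by 3 enzymes in turn, Phgdh, Psat1 and Psph. Shmt enzymes then split serine into glycine and a one-carbon unit carried by folate, and parallel sets of enzymes in the cytosol and in mitochondria oxidise that unit to formate or reduce it, for use in purines, thymidylate and methionine. Aldh18a1 belongs to a neighbouring pathway, the synthesis of proline, the amino acid that collagen is rich in. In muscle with impaired mitochondria, several of these genes are known to be switched on by the stress transcription factor ATF4.

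Total counts ran from 21193536 to 23809256 per library. Stk4, the mouse gene for the Mst1 kinase, was at no more than 29.6 CPM in any WT library and at least 1449 CPM in every Mst1-TG library, the direction that the labels give. CPM here is a count scaled to a common library size, with trimmed-mean (TMM) factors for library composition. Mitochondrially encoded genes took 21.4% to 23.8% of counts in WT and 12.9% to 14.4% in Mst1-TG, and scaling matters for small changes: when counts were scaled by library totals alone, the log2 fold change of the median gene was 0.29 in place of 0.01, and 82.3% of called genes were higher in place of 50.0%. The cardiomyocyte markers were abundant in every library, with a summed level of 47458 to 57578 CPM in WT and 34535 to 44575 CPM in Mst1-TG.

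The pathway did not move as a block. Of the 10 genes 5 were higher in Mst1-TG (Psat1, Mthfd2, Mthfd1l, Aldh18a1 and Phgdh) and 4 were lower (Aldh1l2, Shmt1, Mthfd1 and Shmt2), at an adjusted p below 0.05 in edgeR's quasi-likelihood test with Benjamini-Hochberg adjustment over all genes tested, the rule behind every call below. Over all genes tested 21.2% were called higher and 21.1% lower, 42.3% in either direction. In 8 of the 10 genes the ranges of the groups were apart, 4 with Mst1-TG above WT and 4 below, and this held for 40.3% of all genes tested (20.2% above and 20.1% below). The median log2 fold change of the 10 genes was 0.29, beside 0.01 for all genes tested. With library totals alone, 5 were called higher and 2 lower (Shmt1 and Aldh1l2), where 48.4% of all genes were called higher and 10.4% lower.

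**Figure D1:**
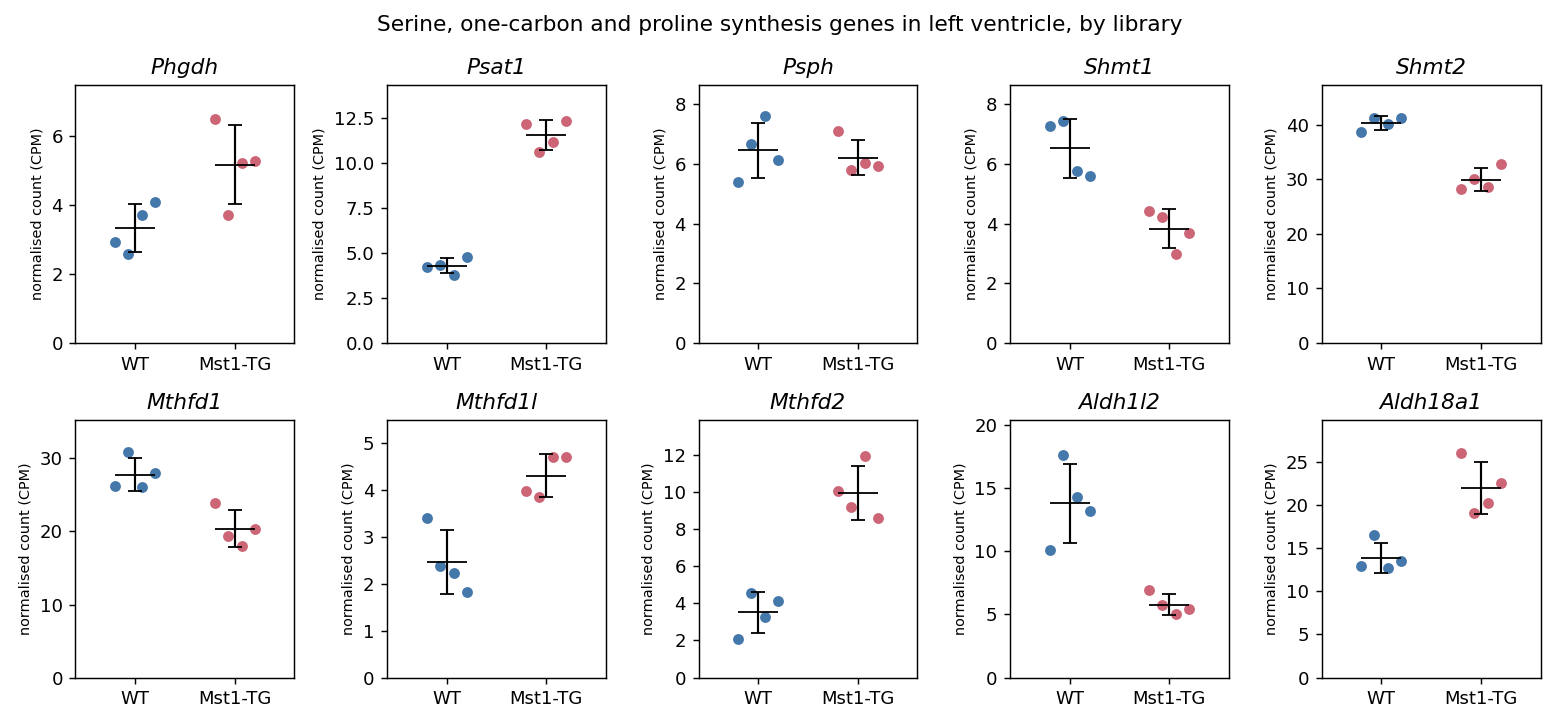
Normalised counts (CPM, linear axes from 0) of the 10 genes, one panel per gene, with 1 point per library (blue WT, red Mst1-TG; horizontal bar and whiskers, mean ± SD of 4). The 4 Mst1-TG points lie clear above WT for Psat1, Mthfd1l, Mthfd2 and Aldh18a1 and clear below it for Shmt1, Shmt2, Mthfd1 and Aldh1l2, and the groups overlap for Phgdh and Psph.

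Among the 3 enzymes of serine synthesis, Psat1 carried the clearest rise. Psat1, the aminotransferase of the second step, stood at 4.25, 4.34, 3.80 and 4.79 CPM in WT 1 to 4 and at 12.2, 10.6, 11.2 and 12.3 CPM in Mst1-TG 1 to 4. Every Mst1-TG library stood far above every WT library. Psat1 lies on chromosome 19 from 15904678 to 15947337 on the reverse strand (GRCm38, GENCODE M21). The rise was 2.69-fold (log2 fold change 1.43 ± 0.11 SE, edgeR adjusted p = 4.9e-07), and the value stayed between 1.37 and 1.71 and passed under each of 15 other settings. Phgdh, the dehydrogenase that opens the pathway, was at 2.93, 2.58, 3.71 and 4.08 CPM in WT and at 6.49, 3.71, 5.22 and 5.27 CPM in Mst1-TG, so that Mst1-TG 2 fell within the WT range. Its mean rose from 3.33 ± 0.690 to 5.17 ± 1.14 CPM (SD, n = 4 each; log2 0.64 ± 0.20 SE, edgeR adjusted p = 0.019). That call was lost without WT 1 (0.58, adjusted p = 0.057), without WT 2 (0.53, adjusted p = 0.059) and without Mst1-TG 1 (0.51, adjusted p = 0.060). Psph, the phosphatase that releases free serine, ran from 5.38 to 7.61 CPM in WT and from 5.79 to 7.09 CPM in Mst1-TG, with a log2 difference of -0.05 ± 0.14 (edgeR adjusted p = 0.78). The start of Psph overlaps Cct6a on the other strand over 452 bases, and since no source used here states the strand setting, reads of the pair may be shared.

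The promoter regions of Psat1, whose rise had the smallest p of the 10 genes, and of Aldh18a1, the only one of them with a match to a motif searched, are shown as the 250 bases before a RefSeq start (GRCm38.p6, 5′ to 3′ on the gene's strand). Psat1 has 2 such starts in the table, of which the upstream one is shown, and both lie inside the span that GENCODE gives the gene. They lie at chr19:15925060-15925309 and chr19:40588464-40588713, both on the reverse strand, and capitals mark an E-box, CACGTG, 59 bases before the start of Aldh18a1.
Psat1: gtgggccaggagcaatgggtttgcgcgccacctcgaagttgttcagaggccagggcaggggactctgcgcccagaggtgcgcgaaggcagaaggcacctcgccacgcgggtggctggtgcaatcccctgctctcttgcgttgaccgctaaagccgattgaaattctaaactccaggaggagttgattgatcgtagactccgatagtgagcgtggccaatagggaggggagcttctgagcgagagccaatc
Aldh18a1: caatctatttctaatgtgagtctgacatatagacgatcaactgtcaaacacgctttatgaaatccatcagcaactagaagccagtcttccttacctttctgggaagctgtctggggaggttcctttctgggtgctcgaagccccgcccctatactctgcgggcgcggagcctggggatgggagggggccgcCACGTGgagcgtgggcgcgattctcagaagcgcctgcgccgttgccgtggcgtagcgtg
RefSeq windows of 300 bases (250 before to 50 after the start) matched 9 of the 10 genes, in 10 windows. TGATGNAA, the element that ATF4 binds with C/EBP proteins, matched in 0 of these 10 windows on either strand, and in 3.97% of 32851 windows of all genes. The cAMP response element TGACGTCA matched in 0 of 10 and in 1.79% of all windows. CACGTG, which MYC and its relatives bind, matched in 1 of 10 and in 7.15% of all windows. Each window covers only the bases next to the start and leaves out introns, so these are counts of letters and say nothing of binding.

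**Figure D2:**
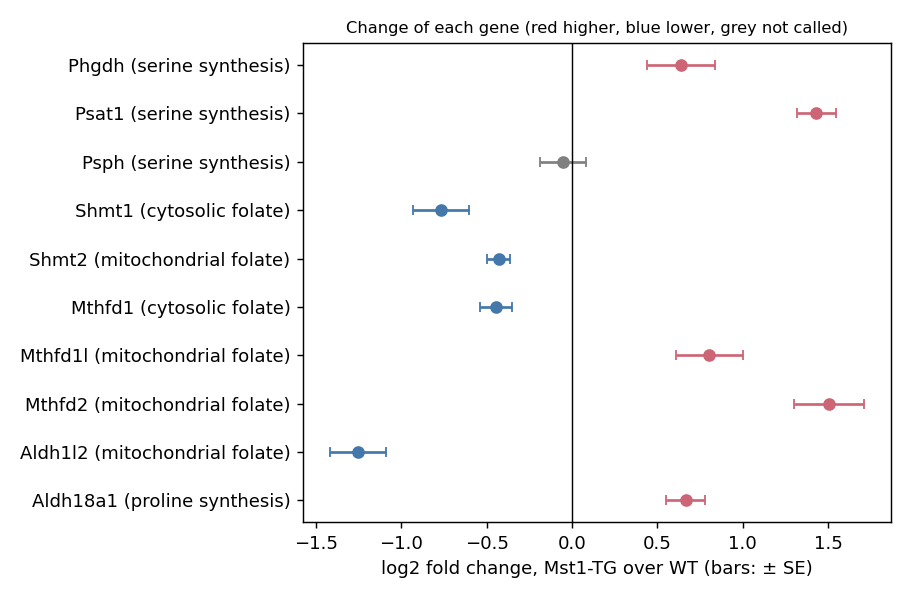
Log2 fold change of Mst1-TG over WT for each gene (x axis; point and bar, estimate ± SE), ordered as serine synthesis, folate steps and proline synthesis. Psat1 (1.43) and Mthfd2 (1.50) lie farthest to the right and Aldh1l2 (-1.25) farthest to the left, and Psph lies at -0.05.

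In mitochondria the enzymes of one folate pathway moved in opposite directions. Mthfd2, the dehydrogenase and cyclohydrolase that oxidises the one-carbon unit and is known from embryonic and proliferating cells, was at 2.08, 4.55, 3.28 and 4.13 CPM in WT and at 10.1, 9.20, 11.9 and 8.57 CPM in Mst1-TG. No library of one group came near the other. The gene lies on chromosome 6 from 83305691 to 83325908 on the reverse strand. The rise was 2.84-fold (log2 1.50 ± 0.20 SE, edgeR adjusted p = 6.6e-05). Mthfd1l, the next enzyme, which releases formate to the cytosol, was at 3.40, 2.38, 2.24 and 1.81 CPM in WT and at 3.97, 3.84, 4.69 and 4.68 CPM in Mst1-TG. Its groups did not overlap, with WT 1 the nearest library, and the rise was 1.74-fold (0.80 ± 0.20, edgeR adjusted p = 0.0049).

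Shmt2, the mitochondrial hydroxymethyltransferase that feeds both of them, was at 38.6, 41.2, 40.0 and 41.3 CPM in WT and at 28.3, 30.0, 28.5 and 32.8 CPM in Mst1-TG, again with no overlap. It fell 1.35-fold (log2 -0.43 ± 0.07 SE, edgeR adjusted p = 1.9e-04), a call that scaling by library totals alone did not keep (-0.15, adjusted p = 0.089). Aldh1l2, which burns the formyl group of mitochondrial folate to carbon dioxide and makes NADPH, was at 10.1, 17.6, 14.3 and 13.2 CPM in WT and at 6.93, 5.74, 5.01 and 5.39 CPM in Mst1-TG. All Mst1-TG libraries were below the lowest WT library, and the fall was 2.38-fold (-1.25 ± 0.16, edgeR adjusted p = 4.4e-05). Aldh1l2 lies on chromosome 10 from 83487450 to 83534140 on the reverse strand. The end of Aldh1l2 overlaps 1056 bases of D10Wsu102e on the other strand, which held 770 to 1165 counts per library.

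Both cytosolic enzymes of the set were lower. Shmt1, the cytosolic counterpart of Shmt2, was at 7.27, 7.44, 5.75 and 5.59 CPM in WT and at 4.42, 4.23, 2.98 and 3.68 CPM in Mst1-TG, a 1.70-fold fall without overlap (log2 -0.77 ± 0.16 SE, edgeR adjusted p = 0.0019). Mthfd1, which carries 3 folate activities in 1 protein, was at 26.3, 30.9, 26.0 and 28.0 CPM in WT and at 23.9, 19.4, 18.0 and 20.3 CPM in Mst1-TG. It fell 1.36-fold (-0.45 ± 0.09, edgeR adjusted p = 0.0019), and Mst1-TG 1 came closest to WT. Scaled by library totals alone, Mthfd1 did not pass (-0.16, adjusted p = 0.16).

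Per kilobase of the longest annotated transcript (GENCODE M21), Shmt2 was the most abundant of the 10 in both groups, at 17.6 ± 0.552 CPM per kb in WT and 13.1 ± 0.913 in Mst1-TG (SD, n = 4 each). Mthfd1 came next with 8.57 ± 0.690 in WT, and then Aldh18a1 with 3.93 ± 0.504. Aldh1l2 (2.29 ± 0.514), Shmt1 (2.28 ± 0.342) and Psph (2.24 ± 0.325) followed in WT and lay within 1 SD of each other, as did Phgdh (1.76 ± 0.364), Mthfd2 (1.68 ± 0.523) and Psat1 (1.64 ± 0.154). Mthfd1l was lowest, with 0.666 ± 0.182. In Mst1-TG the lower part of the order was another one: Mthfd2 (4.76 ± 0.695) and Psat1 (4.42 ± 0.311) came next after Aldh18a1, with a gap below the SD of Mthfd2 but not that of Psat1, and Aldh1l2 (0.957 ± 0.138) was last. The first 3 places in WT and the last were the same with the median transcript length of each gene, while the places between shifted and every level was higher, those lengths being shorter.

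Ratios of 2 related genes within a library do not depend on how libraries are scaled. Mthfd1l over its cytosolic relative Mthfd1 was 0.0647 to 0.129 in WT and 0.166 to 0.260 in Mst1-TG, a 2.44-fold shift. Mthfd2 over Mthfd2l, a paralogue for the same step, was 0.303 to 0.611 in WT and 1.09 to 1.77 in Mst1-TG, a 3.35-fold shift. Mthfd2l itself did not pass (7.55 ± 0.545 against 6.62 ± 0.912 CPM, log2 -0.19 ± 0.13 SE, edgeR adjusted p = 0.26). For both ratios the exact two-sided permutation test gave p = 0.0286, the smallest that 4 against 4 can give, and an adjusted p of 0.048 over the 5 ratios tested.

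Shmt2 over Shmt1 was 5.31 to 7.38 in WT and 6.40 to 9.58 in Mst1-TG, with overlap (difference in log2 ratio 0.34, exact permutation p = 0.143, adjusted 0.143), so a difference between the falls of these 2 genes was not detected. Aldh1l2 over Aldh1l1, its cytosolic relative, varied widely within groups, from 4.95 to 26.2 in WT and from 1.72 to 9.50 in Mst1-TG (exact permutation p = 0.0857, adjusted 0.107). Aldh1l1 rested on few counts, as low as 13 in a library, and did not pass (1.37 ± 0.703 against 2.37 ± 1.23 CPM, edgeR adjusted p = 0.23). It passed without Mst1-TG 2 (log2 1.10, adjusted p = 0.021) and with no low-count filter (0.80, adjusted p = 0.028).

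**Figure D3:**
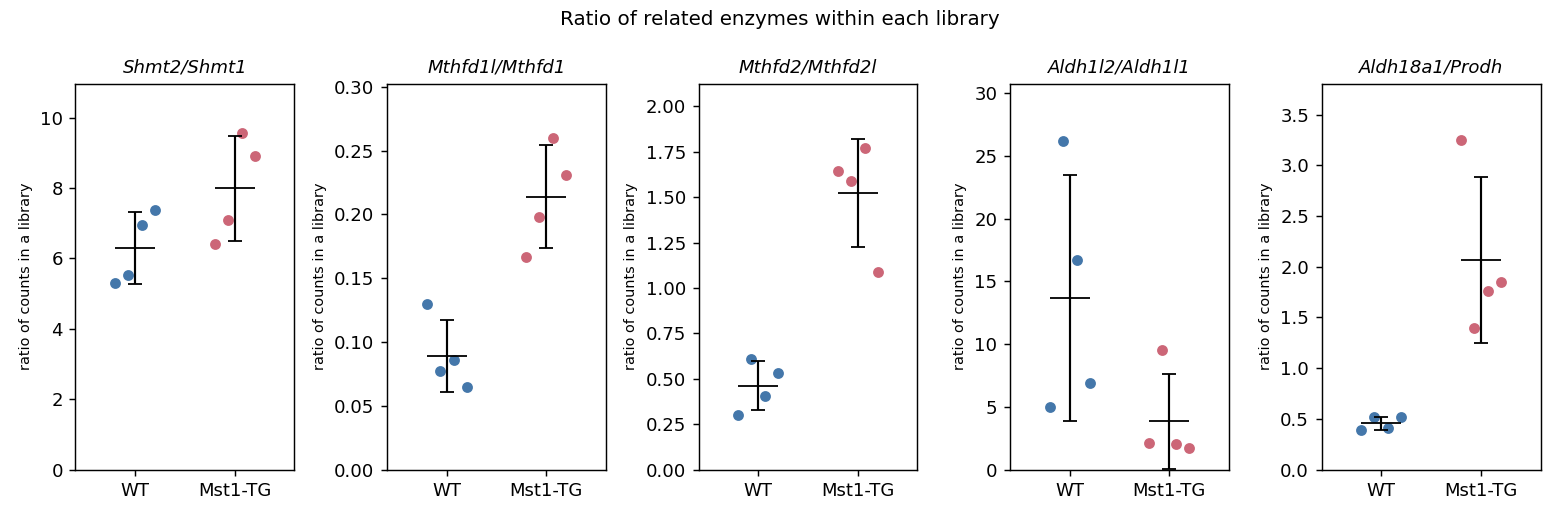
Ratio of the counts of 2 related enzymes in each library (linear axes from 0; points, libraries; bar and whiskers, mean ± SD of 4). The groups are apart for Mthfd1l/Mthfd1, Mthfd2/Mthfd2l and Aldh18a1/Prodh, and overlap for Shmt2/Shmt1 and Aldh1l2/Aldh1l1.

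Genes of proline synthesis and of proline breakdown moved apart. Aldh18a1, which makes the precursor of proline and ornithine from glutamate, was at 12.9, 16.5, 12.7 and 13.5 CPM in WT and at 26.0, 19.1, 20.2 and 22.6 CPM in Mst1-TG. The groups did not overlap. The gene lies on chromosome 19 from 40550257 to 40588463 on the reverse strand. The rise was 1.59-fold (log2 0.67 ± 0.11 SE, edgeR adjusted p = 4.1e-04). Gm15801, a pseudogene inside the gene on the same strand, held 12 to 37 counts per library. Pycr1, the mitochondrial reductase of the last step to proline, rose from 1.85 ± 0.697 to 5.54 ± 1.48 CPM (1.59 ± 0.28, edgeR adjusted p = 5.3e-04).

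On the breakdown side, Prodh, the dehydrogenase that starts proline oxidation, was at 33.0, 32.0, 30.5 and 26.2 CPM in WT and at 7.99, 13.7, 11.5 and 12.2 CPM in Mst1-TG (log2 -1.42 ± 0.14 SE, edgeR adjusted p = 5.5e-06). Aldh4a1, the next enzyme of that route, fell by 1.19 ± 0.08 on the log2 scale, and Oat, which links ornithine to it, by 0.67 ± 0.07. The ratio of Aldh18a1 to Prodh was 0.390 to 0.515 in WT and 1.39 to 3.25 in Mst1-TG, a 4.31-fold shift (exact permutation p = 0.0286, adjusted 0.048). Of 7 tested genes of proline and ornithine metabolism 2 rose, 3 fell and the other 2 did not pass, with a median of -0.04.

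Around the members, 6 of 12 tested genes for folate and serine transport rose, 1 fell and 5 did not pass (median 0.43), beside 21.2% higher and 21.1% lower over all genes. Slc1a5, a carrier of glutamine and other small neutral amino acids, rose from 26.9 ± 1.96 to 49.5 ± 5.94 CPM (log2 0.88 ± 0.09 SE, edgeR adjusted p = 5.1e-06), and Slc1a4, a close relative that carries serine, by 0.64 ± 0.13. The amino acid carriers Slc38a1 and Slc38a4 rose by 0.82 ± 0.11 and 0.72 ± 0.10. Sfxn3, of the family of mitochondrial serine carriers, rose by 0.52 ± 0.10, while its relatives Sfxn1 (0.34 ± 0.13, edgeR adjusted p = 0.056) and Sfxn2 (0.05 ± 0.16, edgeR adjusted p = 0.83) did not pass. Sfxn1 did pass in 7 of 15 other settings, among them those without WT 4 (0.45, adjusted p = 0.011), without Mst1-TG 1 (0.38, adjusted p = 0.043) and without Mst1-TG 2 (0.38, adjusted p = 0.045). The amino acid carrier Slc38a2 did not pass either (-0.35 ± 0.17, edgeR adjusted p = 0.13). These 3 genes are named here after their values were seen. The folate carriers Slc46a1, Slc19a1 and Slc25a32 and the folate receptor Folr2 are also named after their values were seen. Slc46a1 rose (0.71 ± 0.22, edgeR adjusted p = 0.018), with overlap between the groups. Slc19a1 (-0.27 ± 0.19, edgeR adjusted p = 0.28) and Slc25a32 (0.11 ± 0.08, edgeR adjusted p = 0.27) did not pass. The one fall was in Folr2, a gene known from macrophages (-0.74 ± 0.18, edgeR adjusted p = 0.0046). With library totals alone 8 genes of this list were called higher and 0 lower, where 48.4% of all genes were higher and 10.4% lower.

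Among the other mitochondrial folate and glycine cleavage genes, 2 of 7 tested fell and the other 5 did not pass, a share not far from the 21.1% of all genes called lower. The level of Dld, a subunit shared by glycine cleavage and the pyruvate dehydrogenase complex, went from 370.8 ± 18.3 in WT to 172 ± 14.4 CPM in Mst1-TG (SD, n = 4 each; log2 -1.11 ± 0.08 SE, edgeR adjusted p = 1.3e-07). Amt, the aminomethyltransferase of glycine cleavage, fell by 0.56 ± 0.13 but did not pass with library totals only (-0.27, adjusted p = 0.093). Core nuclear subunits of the respiratory chain, listed for comparison, fell in 22 of 22 cases with a median of -1.07. Shmt2 (-0.43) thus fell by less than that median, and Mthfd2 and Mthfd1l rose. Aldh1l2 (-1.25 ± 0.16) lay within the range of the respiratory chain genes, from -1.31 (Uqcrc1) to -0.84 (Sdhd).

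Of the 7 other tested genes listed with the cytosolic folate enzymes, 2 were called higher and 0 lower, and 5 did not pass. Over all genes 21.2% were called higher and 21.1% lower. Tyms, which makes thymidylate, rose (log2 0.57 ± 0.16 SE, edgeR adjusted p = 0.010). So did Ggh, a mainly lysosomal hydrolase of folate tails (0.30 ± 0.11, edgeR adjusted p = 0.041). The call of Ggh was lost in 8 of 15 other settings. With library totals alone 5 of the 7 were higher, where 48.4% of all genes were called higher. Of 15 genes in purine and thymidylate synthesis, only some of which use a folate unit, 3 rose and 5 fell. Their median was -0.05, and the shares were near the 21.2% and 21.1% of all genes. Library totals alone gave 7 higher and 1 lower, near the 48.4% higher and 10.4% lower of all genes under that scaling. Without WT 1, WT 2 or Mst1-TG 3 the number lower was 3. Adsl fell by 0.73 ± 0.06, whereas Atic, which uses a formyl unit in the last steps of purine synthesis, rose by 0.45 ± 0.09. In the methionine cycle 3 of 12 genes fell and 1 rose (median 0.00), again near the 21.1% of all genes called lower. Library totals alone gave 5 higher and 1 lower here, also near the shares of all genes under that scaling. Without Mst1-TG 1, 5 were lower. Mtr, the enzyme that hands the folate methyl group to homocysteine, was at 107 ± 15.0 CPM in WT and at 45.4 ± 8.71 CPM in Mst1-TG (log2 -1.24 ± 0.14, edgeR adjusted p = 3.1e-05), without overlap between the groups.

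**Figure D4:**
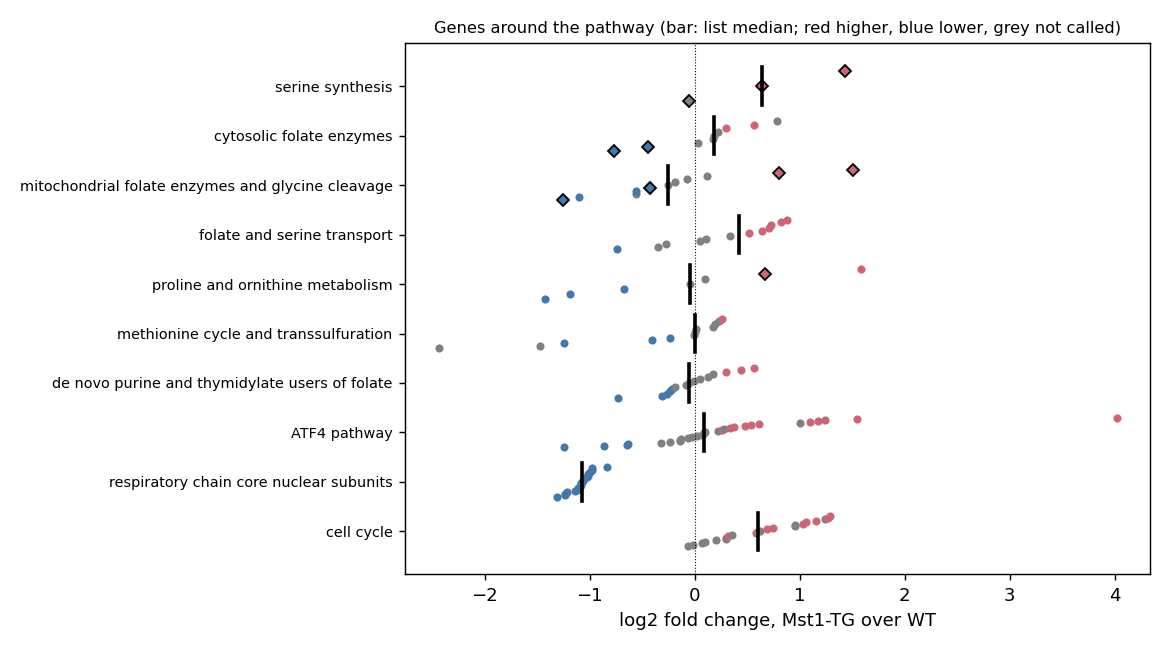
Log2 fold change of Mst1-TG over WT (x axis) for each tested gene of 10 gene lists (rows; diamonds, the 10 genes of this account; black bar, list median; red called higher, blue called lower, grey not called). Respiratory chain genes lie together near -1.07, whereas folate and proline genes spread to both sides of 0.

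The ATF4 pathway, which is known to control Phgdh, Psat1, Shmt2, Mthfd2 and Aldh18a1, was mixed as well. Atf4 itself was at 101 to 105 CPM in WT and at 129 to 181 CPM in Mst1-TG (log2 0.53 ± 0.09 SE, edgeR adjusted p = 3.5e-04). Of 30 tested genes 11 rose, 4 fell and 15 did not pass, with a median of 0.09, beside 21.2% higher and 21.1% lower over all genes. With library totals alone 20 were higher and 4 lower, where 48.4% of all genes were higher and 10.4% lower. Atf3, a stress-induced partner of ATF4, rose by 4.02 ± 0.28, the stress protein Nupr1 by 1.55 ± 0.15, the phosphatase subunit Ppp1r15a by 1.24 ± 0.12 and the amino acid carrier Slc7a5 by 1.10 ± 0.12. Dele1, which relays mitochondrial stress to this pathway, fell by 1.25 ± 0.07. Of some classical target genes, picked after their values were seen, Asns rose (0.62 ± 0.19, edgeR adjusted p = 0.016). Its edgeR adjusted p was between 0.053 and 0.054 without WT 1, WT 3 or Mst1-TG 4. Trib3 (-0.32 ± 0.17), Chac1 (-0.14 ± 0.20) and Ddit3 (-0.24 ± 0.10) did not pass, although Ddit3 did without WT 4 (-0.31, adjusted p = 0.023). The remaining calls of this list are also named after their values were seen. Called higher were Sesn2 (0.47), Atf5 (0.34), Slc3a2 (0.26), Eif2ak3 (0.38) and Myc (1.18). Called lower were Slc7a1 (-0.64), Vldlr (-0.63) and Oma1 (-0.86).

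The genes whose pattern over the 8 libraries was most like that of a member were sought for the 3 members with the smallest p, as the smallest root mean square difference of log2 CPM after subtracting the WT mean. The shift between the groups enters this measure, so it favours genes with a similar fold change. For Psat1 they were Sulf1 (0.077), Lpar1 (0.080) and Pcolce (0.097), against a median of 1.01 over all genes compared. Their log2 fold changes were 1.46, 1.32 and 1.34, beside 1.43 for Psat1. Sulf1 and Pcolce encode extracellular proteins, an editor of heparan sulphate and an enhancer of procollagen processing. For Aldh1l2 they were Wfdc1 (0.110), Mtr (0.125) and the mitochondrial chaperone Hspd1 (0.134), and for Mthfd2 they were Adamtsl2 (0.180), Zfp185 (0.193) and Ddah1 (0.203).

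Marker genes of several cell types also differed between the groups. All 10 fibroblast markers rose, with a median of 1.17 and a summed level of 2894 to 3840 CPM in WT and 6731 to 9359 CPM in Mst1-TG. Cell cycle genes were called higher in 9 of 22 cases (median 0.61, beside 21.2% of all genes), among them Cdk1 (1.29 ± 0.31) and Mki67 (1.03 ± 0.29). However, without single libraries as few as 4 were called. With library totals alone 18 were called, where 48.4% of all genes were called higher. Of 8 cardiomyocyte markers 5 fell (median -0.41) and of 8 endothelial markers 3 fell and 1 rose, beside 21.1% lower and 21.2% higher over all genes. Of 8 smooth muscle and pericyte markers 2 rose and 3 fell. None of 8 macrophage markers was called in edgeR, DESeq2 or limma-voom (2 at an unadjusted p below 0.05). None of 7 erythroid markers was called in edgeR or DESeq2 (2 in limma-voom, and 2 at an unadjusted p below 0.05). Lymphocyte markers summed to no more than 7.56 CPM in any library. Of the atrial markers Nppa, also a ventricular stress gene, rose, Sln, Myl4 and Myl7 fell and Bmp10 had 0 counts. The part of these shifts in the rises and falls of the serine, folate and proline genes was not tested. In RNA of whole ventricle, fewer cells of a type and less RNA per cell cannot be told apart.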

How the data were processed

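Libraries were made from 200 ng of rRNA-depleted left ventricular RNA with a directional kit, per the labels' protocols. The authors deposited estimated counts per gene, which are whole numbers, so rounding changed nothing. The tools were bcl2fastq 2.19.1.403 and kallisto 0.46.0, per the submitters' processing notes. The genome build, annotation and strand setting behind them are not given in the sources used. Reads of overlapping or near-identical genes may therefore be shared.

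The main test was edgeR 4.0.16 in R 4.3.3: filterByExpr (minimum count 10, minimum total 15), TMM factors, a robust quasi-likelihood F test on group, Benjamini-Hochberg adjustment over 15314 genes, threshold 0.05. SE is the log2 fold change over the root of F. The median SE was 0.111, and the biological variation between libraries 11.4%. DESeq2 1.42.0 and limma 3.58.1 (voom) were alternatives. Ratios within libraries used exact permutation tests over 70 regroupings. Pairs of libraries of one group differed beyond sampling noise (chi-square over degrees of freedom of 7.92 to 23.4), so none was counted as a duplicate. Nothing says that libraries are separate animals, so a p-value covers only the spread between libraries, which may be technical.

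The members and lists were chosen with earlier results of these data known. Genes named were the 10 members, Stk4, Atf4, ratio partners and up to 5 of each list with the smallest p; a few others are marked in the text as named after their values were seen. Not every gene so selected is described. Positions and transcript lengths come from GENCODE M21 (GRCm38), whose versioned identifiers match the table for the 10 members. One listed gene, Pycr3, stands in the table as Pycrl.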

Additional observations from a re-analysis of the deposited data

How the results depend on the processing

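Psat1, Mthfd2, Mthfd1l, Aldh18a1, Shmt1 and Aldh1l2 kept their direction and their call under each of 15 alternatives (RLE factors, library totals only, DESeq2, limma-voom, no filter on low counts, without mitochondrial and the 20 most abundant genes, the replicate block and 8 fits without a library). With library totals only, 7409 genes were called higher and 1592 lower, 5 and 2 of the members, and Shmt2 (-0.15) and Mthfd1 (-0.16) did not pass, and the cause was not tested beyond the change of scaling; Mat2b (0.054) and Prps1 (0.020), lower otherwise, changed sign. Without single libraries Phgdh ran from 0.51 to 0.77 and passed in 5 of 8. The log2 ratio differences then ran from 1.15 to 1.48 (Mthfd1l/Mthfd1), 1.56 to 1.90 (Mthfd2/Mthfd2l) and 1.86 to 2.27 (Aldh18a1/Prodh). None of the 3 passed without Mst1-TG 2, 3 or 4, whereas all 3 passed without each other library, and the cause was not tested. In each of these ratios all 4 Mst1-TG libraries lay above every WT library, so the groups stay apart whichever library is left out. An exact p from 3 against 4 libraries moves in coarse steps. Same-numbered libraries did not deviate together (correlations -0.14 to 0.07), and nothing in the labels pairs them. So few libraries cannot exclude a pairing. With the replicate block no call of a member changed. The 3 ratios (1.29, 1.75 and 2.11) then had an exact permutation adjusted p of 0.125, the smallest that 4 pairs can give. At these depths the members rest on 36 to 842 counts per library, and counts of Aldh1l1 were too few for a firm ratio.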
